A study of Mus musculus with 18 samples.

Results

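The comparison described here is that of microglia from injured spinal cords injected with rIL-13 against microglia from cords injected with PBS, across all genes. It rests on 6 of the 18 libraries of the series, 3 per group, assigned to their groups by the labels. Each library came from 1 female C57BL/6J mouse of 8 to 10 weeks. All mice, the PBS controls included, received a contusion of the spinal cord, then a single intraspinal injection at 48 h after injury, and their cells were taken 24 h later. Microglia were sorted as CD45 low cells positive for CD11b and F4/80, and macrophages as the CD45 high cells of the same cords. The PBS mice are numbered 1, 2 and 3, the rIL-13 mice 5, 6 and 7, and the rIL-4 mice, whose libraries add to the estimate of the spread, 8, 9 and 10.

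IL-13 is a type 2 cytokine made by lymphocytes, mast cells and other immune cells. On myeloid cells it binds a receptor of IL-13Rα1 and IL-4Rα, whose Janus kinases phosphorylate the transcription factor STAT6. In mouse macrophages this route is known to induce a set of genes termed alternative activation, among them Retnla and Chil3. Microglia are the resident macrophages of the central nervous system, and in healthy tissue they are marked by genes such as P2ry12, Tmem119 and Cx3cr1.

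The 6 libraries held between 37151793 and 41960631 counts. The PBS libraries detected 17620, 17876 and 18371 genes and the rIL-13 libraries fewer, at 16832, 16132 and 16693. Levels are given in CPM, counts per 1000000 counts of the TMM-scaled library size. The 20 homeostatic microglia genes were all measured, and Cx3cr1 lay between 347 and 2077 CPM in the 6 libraries. Among the markers of other leukocytes, Cd3e, Ms4a1, Elane, Mpo, Prg2 and Cpa3 had 0 counts in all 6 libraries. Others were present, in CPM of the plain library total. Of the neutrophil genes, Csf3r was between 58.4 and 184 CPM and S100a8 between 13.1 and 60.8 CPM. Lcn2 was between 22.9 and 51.7 CPM with PBS and between 54.4 and 83.1 CPM with rIL-13. Kit, of the mast cell list, was between 17.2 and 40.3 CPM. Mcpt4, Cma1, Tpsb2 and Ms4a2 of that list had, like Cpa3, 0 counts in all 6 libraries. Summed over each list, in CPM of the plain library total, neutrophil markers lay between 205 and 435, dendritic cell markers between 73.1 and 467, oligodendrocyte markers between 389 and 605, astrocyte markers between 191 and 526 and neuron markers between 26.5 and 68.3 in the 6 libraries. The dendritic cell list holds Siglech, which is also among the homeostatic microglia genes. Siglech alone was between 111 and 349 CPM with PBS and between 24.8 and 212 CPM with rIL-13. The dendritic cell sum is thus not a measure of dendritic cells alone. Cd209a of this list had 0 counts in all 6 libraries, and Flt3, Clec9a, Xcr1 and Ccr7 were low. Lymphocyte markers lay between 27.3 and 50.5 and eosinophil and mast cell markers between 19.6 and 53.9. Endothelial markers lay between 1871 and 3826 with PBS and between 3413 and 6130 with rIL-13. Of the 15 endothelial markers, 12 had a log2 fold change above 0, with a median of 0.47. In every rIL-13 library 3 of the 15 were higher, as were 6.99% of all genes tested. Among the 3 were Vwf (90.5 to 170 against 342 to 514 CPM) and Pecam1 (153 to 368 against 402 to 690 CPM). The part of endothelial RNA in the results was not tested. None of these lists held a DE gene. Markers of fibroblasts and pericytes were not absent. Their summed level was 3474, 5198 and 3854 CPM of the plain library total with PBS and 3179, 13016 and 2677 CPM with rIL-13, so that the rIL-13 library of mouse 6 stood apart. Since these are bulk libraries, fewer cells of a type and less RNA per cell cannot be told apart.

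Of the 53465 genes in the table, 15566 passed the filter on low counts and were tested by edgeR's quasi-likelihood test. At an adjusted p under 0.05, 57 were differentially expressed (DE), which is 0.366% of the genes tested. Of them, 44 were higher with rIL-13 (0.283%) and 13 were lower (0.0835%), and 1208 had an unadjusted p below 0.05. No overlap between the 3 rIL-13 and 3 PBS libraries was seen for any of the 57, a state that 6.99% of all genes tested reached with rIL-13 higher and 8.94% with rIL-13 lower. The number of DE genes depended on single mice. It was 22 without PBS mouse 3, 24 without PBS mouse 1, 25 without PBS mouse 2, 27 without rIL-13 mouse 7, 41 without rIL-13 mouse 5 and 51 without rIL-13 mouse 6. DESeq2's Wald test on the same libraries called 322 genes, with the 57 among them. Of the 57 genes, 16 were DE in each of these 6 fits without 1 library and 9 in none of them.

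**Figure D1:**
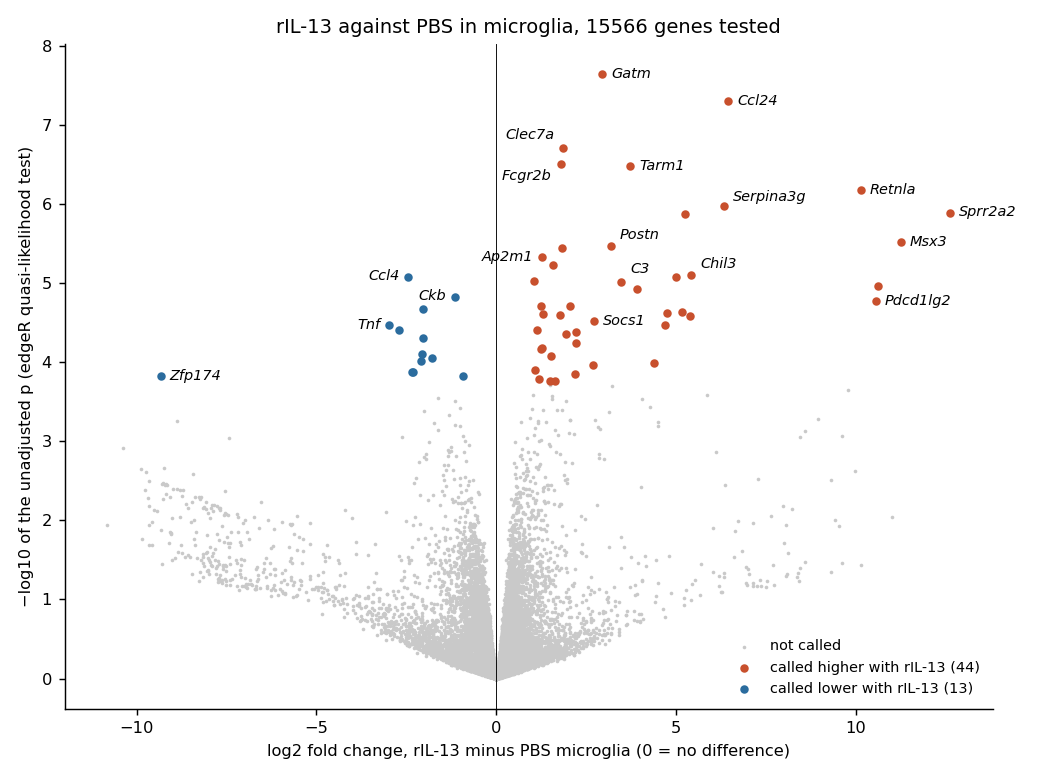
Each point is 1 of the 15566 genes tested, with the log2 fold change of rIL-13 against PBS microglia on the horizontal axis and −log10 of the unadjusted p of edgeR's quasi-likelihood test on the vertical axis. Orange points are the 44 genes higher with rIL-13 and blue points the 13 lower, and the largest fitted fold changes belong to genes with few or no counts in PBS, such as Sprr2a2 and Retnla.

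The lowest p belonged to Gatm (ENSMUSG00000027199.14, chromosome 2 from 122594467 to 122611303), the enzyme that takes an amidino group from arginine in the first step of creatine synthesis. Its level was 324, 249 and 303 CPM with PBS and 2441, 1897 and 2377 CPM with rIL-13. All rIL-13 libraries were far above all PBS libraries. The difference was 7.66-fold, or 2.94 ± 0.17 on the log2 scale (SE), with an adjusted p of 0.000357 by edgeR. Gatm was DE in all 6 fits that left out 1 library, with a highest adjusted p of 0.00605. In macrophages sorted from the same rIL-13 mice it was lower, at 904, 819 and 844 CPM on the macrophage libraries' own scaling.

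Chil3 (ENSMUSG00000040809.10, chromosome 3 from 106147554 to 106167564) encodes Ym1, a secreted chitinase-like protein. It was at 55.3, 276 and 88.7 CPM with PBS and at 5156, 5188 and 7587 CPM with rIL-13, without overlap. The log2 fold change was 5.41 ± 0.62 (SE), with an adjusted p of 0.00778, and of 0.0560 without PBS mouse 3. Chil3 is also a gene of recruited macrophages, and in macrophages sorted from the same rIL-13 mice it was at 51521, 50080 and 68419 CPM. Without Chil3, the summed level of the other monocyte and macrophage markers, in CPM of the plain library total, was 2209, 2970 and 2303 with PBS and 2759, 3082 and 3178 with rIL-13. These ranges overlapped, and the two-sided exact permutation test gave p = 0.2, where 0.1 is the smallest p that 3 against 3 allow. Fn1 and Vim made up most of this sum, and single members went further. S100a4 rose (adjusted p = 0.0471, lost in every fit without 1 library), and Gda and Ms4a8a were higher in every rIL-13 library without passing the test (adjusted p = 0.0851 and 0.334). With Chil3 included, the sums on the same plain scale were 2264, 3265 and 2392 against 7829, 8693 and 11466. The part of macrophage RNA in the Chil3 value was not tested.

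Retnla (ENSMUSG00000061100.3, chromosome 16 from 48842551 to 48844461), the resistin-like protein known as FIZZ1, was almost absent with PBS, at 0.188, 0.0238 and 0.0512 CPM. With rIL-13 it reached 199, 42.0 and 55.3 CPM. The rIL-13 libraries varied among themselves, and the lowest of them was still far above every PBS library. The log2 fold change was 10.13 ± 0.87 (SE), with an adjusted p of 0.00173. In macrophages sorted from the same rIL-13 mice Retnla was at 229, 218 and 110 CPM. The part of macrophage RNA in its value was not tested.

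Ccl24 (ENSMUSG00000004814.10, chromosome 5 from 135569937 to 135573049), or eotaxin-2, attracts eosinophils. Its level was 4.30, 5.56 and 3.07 CPM with PBS and 351, 467 and 309 CPM with rIL-13. The groups did not overlap, and the difference was 87.2-fold (log2 6.44 ± 0.42, SE, adjusted p = 0.000391). The chemokine Ccl8 was at 1.83, 2.49 and 1.97 CPM with PBS and at 57.7, 107 and 36.8 CPM with rIL-13. It rose by 5.00 on the log2 scale, with an adjusted p of 0.00778, and the call was lost without any 1 of the 3 PBS mice, where the highest adjusted p was 0.0685. Ccl6 rose 3.86-fold, from 171 ± 56.8 to 659 ± 163 CPM (SD, n = 3), with an adjusted p of 0.0179. This call was lost in the fits lacking mouse 1 or 3 of PBS, or mouse 7 of rIL-13, with an adjusted p of up to 0.141. In macrophages sorted from the same rIL-13 mice Ccl24 was at 1307, 4425 and 1653 CPM. Ccl8 was at 121, 237 and 144 CPM there and Ccl6 at 2103, 3470 and 2651 CPM. The part of macrophage RNA in the values of these chemokines was not tested.

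Surface receptors of myeloid cells were among the genes with the lowest p. Clec7a, the β-glucan receptor Dectin-1, was at 172, 148 and 152 CPM with PBS and at 576, 529 and 609 CPM with rIL-13. The annotation types this locus as a polymorphic pseudogene. Its log2 fold change was 1.86 ± 0.14 (SE), with an adjusted p of 0.00103. Fcgr2b, the inhibitory Fc receptor for IgG, was at 275, 310 and 307 CPM and at 1097, 898 and 1097 CPM, which is a 3.47-fold rise (adjusted p = 0.00104). Fcgr3, an activating receptor of the same family, had a log2 fold change of 0.43 with an adjusted p of 0.708, and Fcgr1 one of -1.15 with an adjusted p of 0.106. Tarm1, an activating receptor of the immunoglobulin superfamily, was at 3.11, 6.39 and 5.07 CPM with PBS and at 75.7, 53.8 and 64.0 CPM with rIL-13 (log2 3.73, adjusted p = 0.00104). Clec7a, Fcgr2b and Tarm1 were DE in all 6 fits without 1 library.

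Other DE genes were not detected or barely detected with PBS. Sprr2a2 (chromosome 3 from 92215920 to 92256724), a small proline-rich protein first known from the cornified envelope of skin, had 0 counts in the 3 PBS libraries and 25.8, 13.3 and 20.1 CPM with rIL-13. Set against 3 counts per PBS library, it was at least 259-fold higher. Sprr2a1 (chromosome 3 from 92215799 to 92221911), a near-identical copy, overlaps this interval. It too had 0 counts with PBS and was at least 63.6-fold higher with rIL-13, at 5.27, 4.08 and 5.19 CPM. RSEM divides reads that match both copies, so that their separate levels are uncertain. Pdcd1lg2, which encodes the PD-1 ligand PD-L2, had 0 counts with PBS, was at 7.85, 2.12 and 4.04 CPM with rIL-13, and was at least 61.3-fold higher. The adjusted p-values of these 3 genes were 0.00229, 0.00849 and 0.0114. Fitted on the 6 compared libraries alone, Sprr2a1 and Pdcd1lg2 were not DE, with adjusted p-values of 0.0625 and 0.102. Msx3, a homeobox gene, had 1 count over the 3 PBS libraries and was at 12.0, 54.5 and 17.5 CPM with rIL-13. The ratio was 3537, with a 95% exact interval from 604 to 132992 that covers counting error only, and an adjusted p of 0.00472, or 0.0523 without PBS mouse 2. In macrophages sorted from the same rIL-13 mice Msx3 was at 41.0, 126 and 48.5 CPM and Pdcd1lg2 at 27.0, 38.4 and 21.1 CPM. Sprr2a2 was lower there, at 2.65, 3.14 and 1.47 CPM. The part of macrophage RNA in these values was not tested.

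Serpina3g, an inhibitor of serine and cysteine proteases, was at 3.87, 2.61 and 1.18 CPM with PBS and at 164, 130 and 323 CPM with rIL-13, an 80.6-fold rise with an adjusted p of 0.00229. Rnase2a, of the eosinophil-associated ribonuclease family, rose 38.4-fold to 22.7 ± 9.44 CPM (SD, n = 3), with an adjusted p of 0.00229. The copies of this family share sequence, so its level is uncertain as well. C3, the central component of complement, was at 8.57, 14.6 and 17.2 CPM with PBS and at 123, 223 and 100 CPM with rIL-13. Its rise by 3.46 on the log2 scale had an adjusted p of 0.00807, and of 0.0523 without PBS mouse 2.

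Several metabolic enzymes were among the DE genes. Xdh, xanthine dehydrogenase, rose 2.96-fold, from 132 ± 25.4 to 390 ± 39.6 CPM (SD, n = 3), with an adjusted p of 0.00658. Prps1, which makes phosphoribosyl pyrophosphate for nucleotide synthesis, rose 3.54-fold (adjusted p = 0.00472). Pfkfb4, which sets the level of the glycolytic activator fructose 2,6-bisphosphate, rose 2.21-fold (adjusted p = 0.0170), and was DE without rIL-13 mouse 6 but not without any 1 of the other 5 libraries, with an adjusted p of up to 0.113. Ap2m1, a subunit of the clathrin adaptor AP-2, rose 2.43-fold (adjusted p = 0.00562). Xdh, Prps1 and Ap2m1 were DE in each of the 6 fits.

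**Figure D2:**
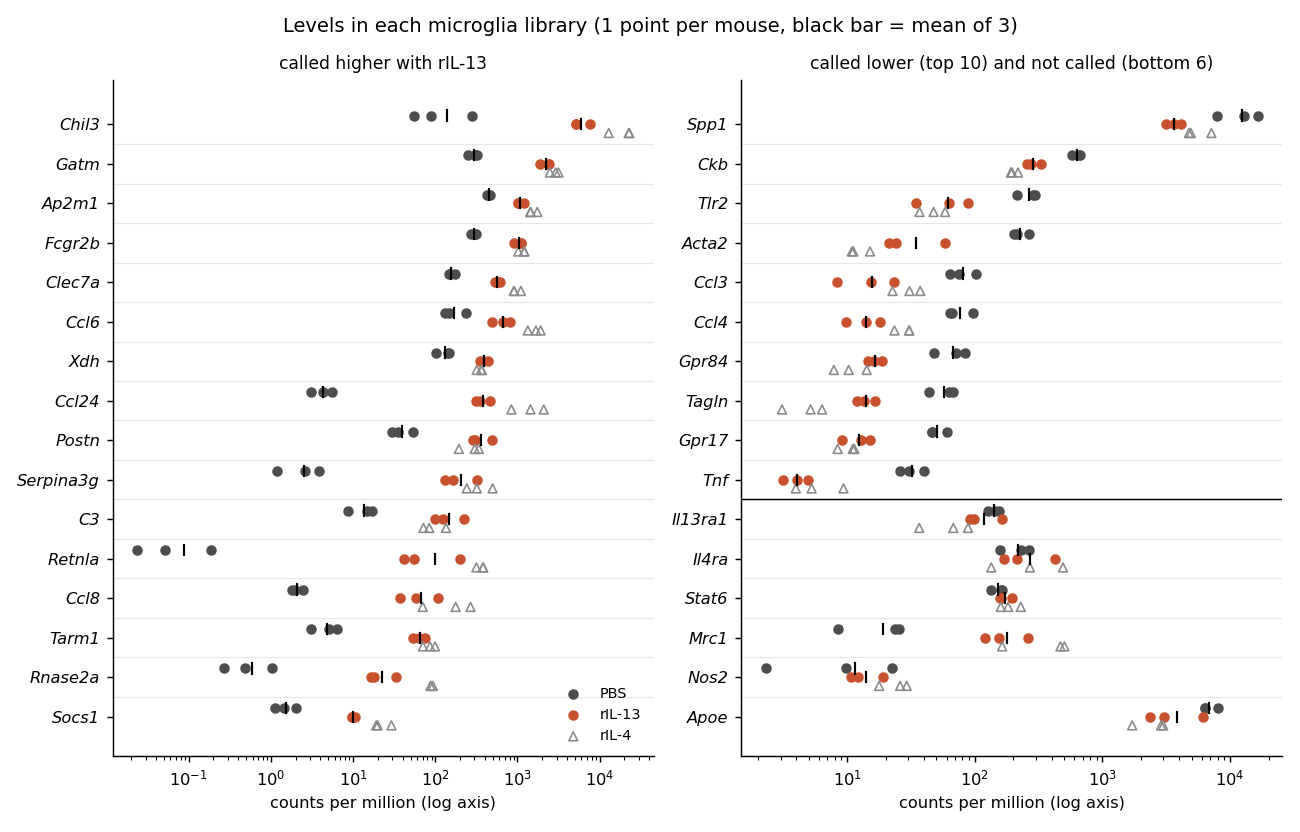
Each symbol is 1 microglia library, with CPM on a log axis, filled circles for PBS (grey) and rIL-13 (orange), triangles for rIL-4, and black bars for the mean of the 3 PBS or rIL-13 libraries. The left panel holds 16 genes higher with rIL-13, and the right panel holds 10 genes lower with rIL-13 above the line and 6 genes that did not pass the test below it. Symbols of PBS and rIL-13 do not overlap for the DE genes.

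To show the DNA upstream of genes that rose, promoter windows of 300 bases, from 250 before to 50 after the start site, were taken from RefSeq (GRCm38.p6) and searched for the spaced half-sites that STAT factors bind. STAT6 is known for binding TTCNNNNGAA, and other STAT proteins for TTCNNNGAA. Both motifs read the same on either strand, and none of the windows of DE genes held both. Of the 44 genes that rose, 37 matched by symbol, with 44 windows. TTCNNNNGAA was in 7 of these windows (15.9%), in 6 genes, with 2 alternative windows of Clec7a counted. It was in 6.95% of the 32851 windows of all genes, in 5.63% of the 14267 windows of the genes tested, and in 0 of the 11 windows of the genes that fell. TTCNNNGAA was in 3 of the 44 windows (6.82%), those of Serpina3g, Chil3 and Itih4, in 8.30% of all windows, in 6.91% of those of the genes tested and in 0 of the 11. These are counts of letters with no test, and they do not show binding. The 250 bases before the start site of 4 genes that rose, all with few counts in PBS apart from Clec7a, are printed 5′ to 3′ on the strand of the gene, with the motif in capitals. The motif began 131 bases before the start site in Clec7a (chr6:129472780-129473029, minus strand), 145 in Retnla (chr16:48842359-48842608, plus strand), 204 in Sprr2a2 (chr3:92250397-92250646, plus strand) and 82 in Pdcd1lg2 (chr19:29410669-29410918, plus strand). The RefSeq window of Sprr2a1 was identical to that of Sprr2a2. The Sprr2a2 window lies inside the interval given above for this gene, which begins at 92215920. For Sprr2a2 RefSeq and the annotation used for positions thus place the start differently.
Clec7a: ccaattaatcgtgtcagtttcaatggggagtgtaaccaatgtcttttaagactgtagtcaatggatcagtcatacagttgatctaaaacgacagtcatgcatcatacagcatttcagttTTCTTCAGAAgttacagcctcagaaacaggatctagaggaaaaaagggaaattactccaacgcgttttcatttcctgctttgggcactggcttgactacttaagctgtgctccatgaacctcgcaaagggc
Retnla: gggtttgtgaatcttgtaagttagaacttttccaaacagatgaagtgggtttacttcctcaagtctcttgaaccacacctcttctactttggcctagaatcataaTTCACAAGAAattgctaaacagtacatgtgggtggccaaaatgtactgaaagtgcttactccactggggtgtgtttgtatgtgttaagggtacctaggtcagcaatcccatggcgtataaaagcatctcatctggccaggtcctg
Sprr2a2: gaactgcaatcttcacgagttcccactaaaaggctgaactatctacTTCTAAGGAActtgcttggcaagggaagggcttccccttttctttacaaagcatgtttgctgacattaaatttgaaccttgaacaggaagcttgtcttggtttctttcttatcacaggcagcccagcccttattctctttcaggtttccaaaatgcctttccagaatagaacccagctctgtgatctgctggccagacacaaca
Pdcd1lg2: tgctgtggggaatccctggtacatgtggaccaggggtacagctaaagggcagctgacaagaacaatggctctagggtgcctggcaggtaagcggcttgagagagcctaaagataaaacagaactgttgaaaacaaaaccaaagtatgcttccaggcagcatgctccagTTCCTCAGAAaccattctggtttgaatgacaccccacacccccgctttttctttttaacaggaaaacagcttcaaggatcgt

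The receptor and its signal route come first among the gene lists. Of 20 genes of the IL-4 and IL-13 receptor route, 20 were tested, 1 rose and 0 fell, and the median log2 fold change was -0.05, against -0.0008 over all genes tested. Il13ra1 was at 128, 153 and 143 CPM with PBS and at 98.1, 163 and 91.9 CPM with rIL-13. Il4ra was at 157, 265 and 229 CPM and at 169, 424 and 212 CPM, and Stat6 at 135, 165 and 159 CPM and at 161, 156 and 196 CPM. The groups overlapped for each of these 3 genes, and their adjusted p was 1.00. Socs1, which encodes an inhibitor of Janus kinases that the route itself induces, rose from 1.53 ± 0.45 to 9.97 ± 0.59 CPM (SD, n = 3), or 6.53-fold, with an adjusted p of 0.0148. This call was lost in the fits lacking mouse 1 or 3 of PBS, or mouse 7 of rIL-13, with an adjusted p of up to 0.101. Il13ra2, the decoy receptor, had 0 counts with PBS and was at 3.63, 2.58 and 0.676 CPM with rIL-13, with an adjusted p of 0.429.

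Of the 21 lists, that of alternative activation held the highest number of genes that rose. Of 32 listed, 30 were tested, 7 rose and 0 fell, 28 had a log2 fold change above 0, and the median was 1.89. Pdcd1lg2, Chil4 and Ccl22 had 0 counts with PBS and passed the filter through the cytokine libraries alone. These members could not lie below 0, though the counts include them. The genes that rose included Clec7a, Matk, Chil3, Ccl24, Retnla and Pdcd1lg2. Matk, a kinase that restrains Src family kinases, rose 4.16-fold, from 7.90 ± 1.16 to 32.9 ± 8.48 CPM (SD, n = 3), with an adjusted p of 0.0123. It was not DE without PBS mouse 1, 2 or 3 or rIL-13 mouse 7, with an adjusted p of up to 0.0915. Mrc1, which encodes the mannose receptor CD206, was at 8.49, 23.6 and 25.4 CPM with PBS and at 120, 262 and 155 CPM with rIL-13. The groups did not overlap, but its log2 fold change of 3.22 ± 0.55 (SE) had an adjusted p of 0.0524. Mgl2, a lectin of the same cells, had a log2 fold change of 4.26 with an adjusted p of 0.0833, and Tgm2, a transglutaminase, one of 2.04 with an adjusted p of 0.103. For 17 of the 30 genes, Pdcd1lg2 and Chil4 included, the rIL-13 libraries were all above the PBS libraries, and for 1, Alox15, all below. Over all genes tested these shares were 6.99% and 8.94%.

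In arginine and polyamine metabolism, 20 of 21 genes were tested, 16 of the 20 had a log2 fold change above 0, and the median was 0.37. Ass1, which returns citrulline towards arginine, had a log2 fold change of 1.54 with an adjusted p of 0.0655. Nos2, the inducible nitric oxide synthase that also uses arginine, was at 9.75, 22.3 and 2.30 CPM with PBS and at 12.2, 10.7 and 19.2 CPM with rIL-13. These ranges overlapped, and the log2 fold change was 0.29 ± 0.64 (SE). Ornithine decarboxylase, Odc1, was at 32.5 ± 8.32 and 37.3 ± 20.7 CPM (SD, n = 3). Among 7 chitinase-like and resistin-like genes tested of 11, Chil3 and Retnla rose and 0 fell. Chil4, a near-identical copy of Chil3, had 0 counts with PBS and was at 5.79, 0.231 and 1.37 CPM with rIL-13 (adjusted p = 0.129). The small proline-rich list had 3 of 15 genes tested, and Sprr2a1 and Sprr2a2 rose. All 3 had 0 counts with PBS and passed the filter through the cytokine libraries alone, so no median is given for this list.

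**Figure D3:**
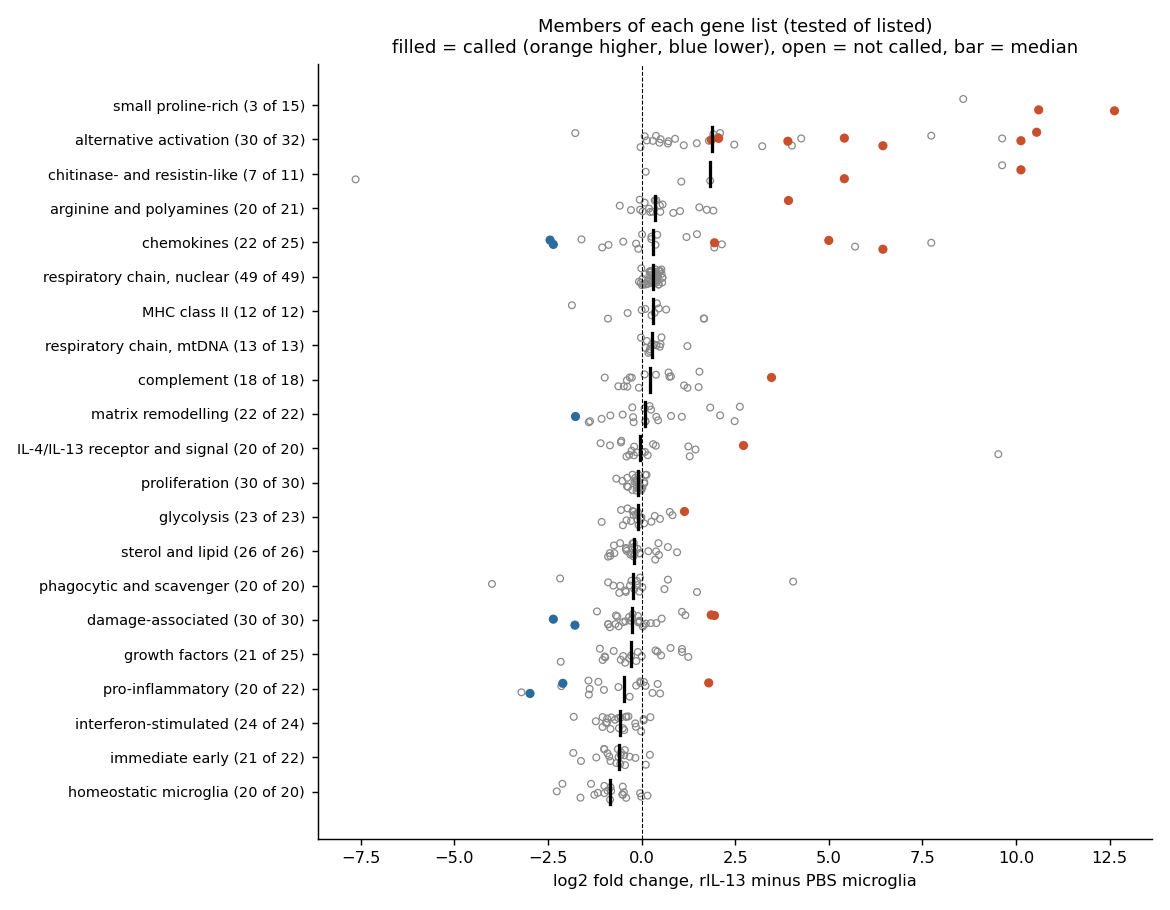
Each point is 1 tested member of 1 of 21 gene lists, placed by its log2 fold change of rIL-13 against PBS microglia. Filled points passed the test (orange higher, blue lower), open points did not, black bars are list medians (none for the small proline-rich genes), and the dashed line is the median of all genes tested. The lists of alternative activation and of chemokines hold 7 and 5 filled points, and most homeostatic microglia genes lie left of the line without passing the test.

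Some inflammatory mediators fell with rIL-13. Among 22 chemokines tested of 25, Ccl24, Ccl8 and Ccl6 rose, and Ccl3 and Ccl4 fell. Ccl4, a chemokine also known as MIP-1β, was at 97.2, 66.3 and 64.0 CPM with PBS and at 17.9, 9.77 and 14.1 CPM with rIL-13. It was 5.44-fold lower, with a log2 fold change of -2.44 ± 0.28 (SE) and an adjusted p of 0.00778, and was DE in all 6 fits without 1 library, but not in the model of all 18 libraries (adjusted p = 0.0621). Ccl3, a related chemokine, was 5.12-fold lower, at 102, 64.0 and 75.2 CPM and at 15.4, 8.28 and 23.5 CPM, with an adjusted p of 0.0408. Its call held without rIL-13 mouse 7 and was lost without each of the other 5 libraries, with an adjusted p of up to 0.196. Of 20 pro-inflammatory genes tested of 22, Tnf and Tlr2 fell and Fcgr2b, an inhibitory receptor, rose. Tnf was at 39.7, 30.4 and 25.7 CPM with PBS and at 4.07, 4.93 and 3.14 CPM with rIL-13. The groups were far apart, and Tnf was 7.89-fold lower with an adjusted p of 0.0156. It remained DE without rIL-13 mouse 6, but not without any other of the 6 libraries, with an adjusted p of up to 0.121. Tlr2, a receptor for bacterial lipoproteins, was 4.29-fold lower (adjusted p = 0.0331), and its call was lost without PBS mouse 1, 2 or 3 or rIL-13 mouse 7, with an adjusted p of up to 0.167. Il1b was at 18.9 ± 4.46 and 4.27 ± 1.52 CPM (SD, n = 3), with an adjusted p of 0.197. The median log2 fold change of this list was -0.47, but its summed level, to which Fcgr2b and Fcgr3 contribute, was 2078, 2027 and 2246 CPM of the plain total with PBS and 3042, 2390 and 2815 CPM with rIL-13.

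Spp1, the secreted phosphoprotein osteopontin, was abundant with PBS, at 7957, 16500 and 12899 CPM. With rIL-13 it was at 3646, 3135 and 4104 CPM. The groups did not overlap, and the level was 3.43-fold lower with rIL-13 (log2 -1.78 ± 0.27, SE, adjusted p = 0.0305). This call held without PBS mouse 1 and was lost without each of the other 5 libraries, with an adjusted p of up to 0.147. Of the 30 damage-associated microglia genes, all tested, Spp1 and Ccl3 fell, Clec7a and Ccl6 rose, and the median was -0.24. Their sum was 58914, 63444 and 60142 CPM of the plain total with PBS and 44571, 29041 and 40176 CPM with rIL-13, without overlap (exact permutation p = 0.1, the smallest possible). Apoe was at 8005, 6330 and 6318 CPM with PBS and at 6110, 2355 and 3022 CPM with rIL-13, without overlap and with an adjusted p of 0.605. Axl, a receptor for apoptotic cells, was at 200, 204 and 206 CPM and at 108, 145 and 75.6 CPM, also without overlap (adjusted p = 0.462). Cd9 had a log2 fold change of -0.68 without overlap (adjusted p = 0.522), Trem2 one of -0.43 (adjusted p = 0.961), and Csf1 one of -0.10 (adjusted p = 1.00). In Trem2 and Csf1 the groups overlapped. Lgals3, galectin-3, had a log2 fold change of 1.17 with an adjusted p of 0.104, and Igf1 one of 1.08 with an adjusted p of 0.332.

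Gpr84, a receptor for medium-chain fatty acids on activated myeloid cells, was at 83.7, 47.9 and 70.7 CPM with PBS and at 14.4, 16.2 and 18.7 CPM with rIL-13 (4.11-fold lower, adjusted p = 0.0199). Its call held without PBS mouse 2 and was lost without each of the other 5 libraries, with an adjusted p of up to 0.129. Ckb, brain creatine kinase, was at 671, 582 and 654 CPM and at 329, 278 and 257 CPM. It was 2.21-fold lower (adjusted p = 0.0105), and the call was lost in the fits lacking mouse 1 or 3 of PBS, or mouse 7 of rIL-13, with an adjusted p of up to 0.0698.

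The remaining genes that fell by the naming rule are known from other cell types. Acta2 and Tagln, contractile proteins of smooth muscle and pericytes, were 6.56-fold and 4.15-fold lower, with adjusted p-values of 0.0170 and 0.0288. Acta2 was at 214, 263 and 201 CPM with PBS and at 24.1, 21.2 and 58.2 CPM with rIL-13, and was DE without rIL-13 mouse 6 or 7 but not without any 1 of the other 4 libraries, with an adjusted p of up to 0.0920. Tagln was DE in 0 of the 6 fits, with an adjusted p of up to 0.178. Of the 20 fibroblast and pericyte markers, 8 did not overlap between the groups, 3 of them higher with rIL-13 and 5 lower. Over all genes tested the shares were 6.99% and 8.94%. Beside Acta2 and Tagln, the pericyte markers Rgs5, Kcnj8 and Cspg4 were lower in every rIL-13 library than in every PBS library, with log2 fold changes of -1.58, -2.47 and -0.69 and adjusted p-values of 0.338, 0.895 and 0.333. Gpr17, a receptor of the oligodendrocyte lineage, was at 45.9, 46.1 and 60.6 CPM and at 15.0, 9.17 and 12.8 CPM, 4.12-fold lower with an adjusted p of 0.0127. It was DE without rIL-13 mouse 5 or 6, and not without any 1 of the other 4, with an adjusted p of up to 0.0884. Olig1 of the same lineage was at 79.6 ± 17.7 and 19.9 ± 5.93 CPM (SD, n = 3), with an adjusted p of 0.0851. In the other direction, Postn, a matrix protein of fibroblasts, was at 29.5, 53.9 and 35.4 CPM with PBS and at 286, 493 and 304 CPM with rIL-13 (9.11-fold higher, adjusted p = 0.00472), and it was DE in all 6 fits. The collagen genes Col6a1 and Col6a2 were also higher in every rIL-13 library, with log2 fold changes of 2.85 and 2.87 and adjusted p-values of 0.174 and 0.185. Of the 20 fibroblast and pericyte markers, 1 rose, 2 fell, and 9 had a log2 fold change above 0. Without the library of mouse 6 their rIL-13 sum was 0.701 times that of PBS. The part of RNA from such cells in these values was not tested.

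**Figure D4:**
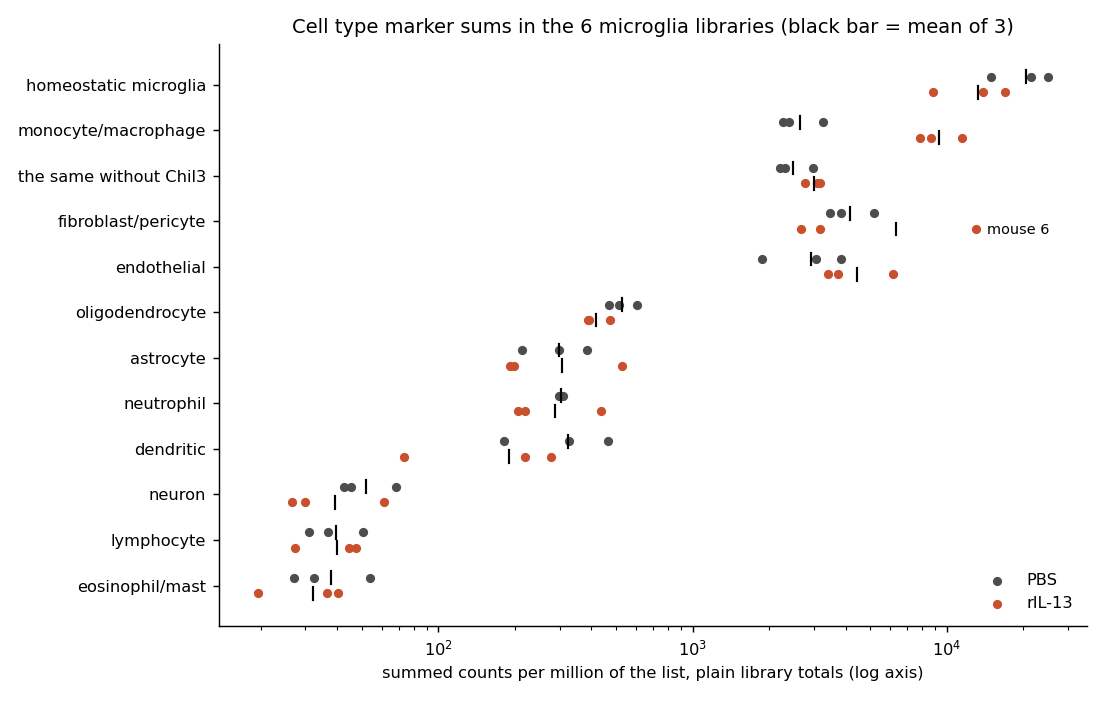
Each point is the summed level of 1 cell type marker list in 1 microglia library, in CPM of the plain library total on a log axis, grey for PBS and orange for rIL-13, with black bars for the mean of 3. Homeostatic microglia genes sum to between 8815 and 25026 CPM, the fibroblast and pericyte sum of rIL-13 mouse 6 stands apart at 13016, and the monocyte and macrophage sums separate with Chil3 and overlap without it.

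Homeostatic microglia genes were mostly lower with rIL-13, but 0 of 20 passed the test. Of the 20, 19 had a log2 fold change below 0, with a median of -0.84. By edgeR 10 of the 20 had an unadjusted p under 0.05, against 1208 of all 15566 genes tested. Their sum was 25026, 14872 and 21405 CPM of the plain library total with PBS and 16924, 8815 and 13934 CPM with rIL-13, with p = 0.2 in a two-sided exact permutation test. PBS mouse 2 was below rIL-13 mouse 5. P2ry13 had a log2 fold change of -1.63 with an adjusted p of 0.116, Olfml3 one of -1.35 with 0.179, and Tmem119 one of -0.99 with 0.570. The medians of the interferon-stimulated list (24 tested) and of the immediate early and dissociation-induced list (21 of 22 tested) were -0.58 and -0.61, and 0 genes of either passed the test. Fos had the lowest p of the latter, at 374, 357 and 287 CPM with PBS and at 106, 143 and 82.0 CPM with rIL-13, without overlap, and with an adjusted p of 0.0686.

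None of the respiratory chain genes passed the test. Of 49 nuclear-encoded subunits, all tested, 46 had a log2 fold change above 0, with a median of 0.31 and a range from -0.07 to 0.56. For 23 of them all rIL-13 libraries were above all PBS libraries, and for 0 all were below, against 6.99% and 8.94% of all genes tested. By edgeR 0 of the 49 had an adjusted p under 0.05, while 19 had an unadjusted p under 0.05. Over all 15566 genes tested, 1208 had an unadjusted p under 0.05. Their sum was 7252, 7812 and 7098 CPM of the plain total with PBS and 9784, 9793 and 9386 CPM with rIL-13, 1.31 times as high, with p = 0.1 in the exact permutation test, the smallest possible. Of the 31 list sums compared, 14 reached this p, 9 of them higher with rIL-13 and 5 lower. On the TMM scale 13 did, since the pro-inflammatory and the phagocytic and scavenger receptor sums no longer reached it (exact permutation p = 0.2) and the oligodendrocyte sum did. Of the 13 subunits encoded in mitochondrial DNA, which have nuclear copies that can share their reads, 12 were above 0 with a median of 0.27, and 0 passed the test. Their share of a library was between 2.18% and 3.01% with PBS and between 3.28% and 3.53% with rIL-13. A single abundant ribosomal RNA row also moved with the groups, from between 12.2% and 14.7% of the counts with PBS to between 8.18% and 12.0% with rIL-13, and its part in these sums was not tested. In glycolysis, 7 of 23 genes were above 0, the median was -0.10, and Pfkfb4 rose. Hk2, a hexokinase, had a log2 fold change of -1.07 with an adjusted p of 0.450.

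Several further lists held few or no DE genes. C3 rose among 18 complement genes and Spp1 fell among 22 matrix genes. The lists of MHC class II (12 tested), sterol and lipid metabolism (26), phagocytic and scavenger receptors (20), growth factors (21 of 25) and proliferation (30) held 0 DE genes, with medians of 0.31, -0.21, -0.23, -0.28 and -0.09. The scavenger receptor Cd163 was at 2.01, 8.43 and 4.02 CPM with PBS and at 64.7, 130 and 44.9 CPM with rIL-13, with an adjusted p of 0.0696. Cd74, the invariant chain of MHC class II, had a log2 fold change of 1.67 with an adjusted p of 0.170.

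The naming rule covered 35 of the DE genes, while the other 22, of which 19 rose and 3 fell, were outside it. Those named here were chosen after their values were seen. The strongest rises among them by fold were those of Itih4 (41.8-fold), Atp6v0d2 (35.9-fold), Smpd3 (27.1-fold), Dhrs9 (26.3-fold) and Ear2 (21.3-fold), with adjusted p-values from 0.0130 to 0.0339. Itih4 varied widely between the rIL-13 mice, at 53.4, 280 and 72.3 CPM. Srgn, the proteoglycan core protein serglycin, rose from 385 ± 101 to 1315 ± 91.5 CPM (SD, n = 3), the highest level in this group. Fcgrt, the neonatal Fc receptor, rose 2.38-fold and Il1r1, the receptor for IL-1, 2.83-fold. The calls of Itih4, Smpd3 and Fcgrt were lost without any 1 of the PBS mice, those of Atp6v0d2 and Dhrs9 without PBS mouse 1 or 2 or rIL-13 mouse 7, that of Srgn without PBS mouse 1 or 3 or rIL-13 mouse 7, and that of Ear2 without PBS mouse 2 or 3 or rIL-13 mouse 5 or 7, with adjusted p-values of up to 0.186. The calls of S100a4, Cbr2, Nfil3, Rnf19b, Il1r1, Hpgd, Mid1ip1, Zfp174 and, from above, Tagln were lost in every fit without 1 library. Hpgd, which inactivates prostaglandins, was 5.01-fold lower. Zfp174 had 0 counts in the rIL-13 libraries and 2.36, 1.28 and 2.38 CPM with PBS, at least 28.3-fold lower.

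Microglia and macrophages of the same cords were compared to see whether the response differed between them. Of the 13010 genes tested in both, 335 (2.57%) rose and 222 (1.71%) fell in macrophages. Of the 44 genes that rose in microglia, 42 were tested in macrophages, all 42 had a log2 fold change above 0 there, and 34 were DE and higher. These 34 are 77.3% of the microglia list and 9.88% of the 344 genes that rose in macrophages. Of the 13 that fell, 12 were tested, all were below 0, and 6 were DE and lower, which are 46.2% of the microglia list and 2.65% of the 226 genes of the macrophage list. Each mouse gave both of its libraries, so the cell types are not independent samples.

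**Figure D5:**
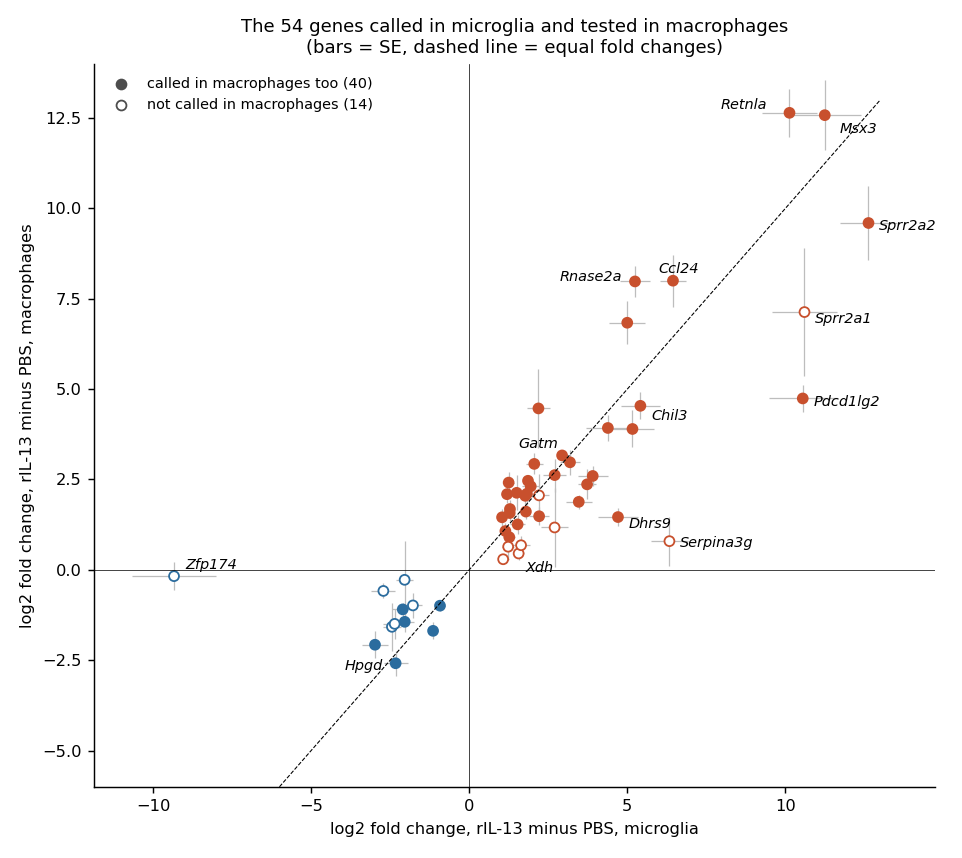
Each point is 1 of the 54 genes DE in microglia and tested in macrophages, with its log2 fold change of rIL-13 against PBS in microglia (horizontal) and in macrophages (vertical), bars for the SE of each and a dashed line for equal changes. The 40 filled points were DE in macrophages too, the 14 open points were not, and Serpina3g lies far below the line.

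A difference in the response itself was tested as an interaction over the 12 PBS and rIL-13 libraries. It was DE for 3 of 15886 genes (0.0189%), with 1038 at an unadjusted p under 0.05, and DESeq2's Wald test called 162. None of the 57 genes was among the 3. The largest gap among the DE genes with counts in every group was that of Serpina3g, which, on the macrophage libraries' own scaling, was at 0.0510, 0.408 and 0.351 CPM in PBS macrophages and at 0.426, 0.576 and 0.405 CPM in rIL-13 macrophages. Its difference between cell types was 5.58 ± 0.87 on the log2 scale (SE), with an adjusted p of 0.0943. Gatm rose by 3.17 on the log2 scale in macrophages, and the difference between cell types was -0.17 ± 0.20 (SE, adjusted p = 1.00). Mrc1, which did not pass the test in microglia, rose in macrophages by 4.56 (adjusted p = 8.41e-06), and the difference of -1.28 ± 0.52 (SE) did not pass (adjusted p = 0.666).

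The rIL-4 microglia share the PBS libraries with this comparison, so the cytokines were compared directly. By edgeR's quasi-likelihood test 6 of the 15566 genes were DE between the microglia of both cytokines (0.0385%). Of the 57 genes, 0 were among these 6. The paper, which used DESeq2, reported many more genes that differed between the cytokines in microglia. For rIL-13 against PBS microglia, DESeq2's Wald test called 322 genes where edgeR called 57. For rIL-4 against rIL-13 no DESeq2 count is given here, so the low edgeR count does not show that the cytokines hardly differ. Chil3 was at 12896, 22548 and 22931 CPM with rIL-4, and its difference of 1.70 on the log2 scale had an adjusted p of 0.330. Gatm was at 3156, 2914 and 2478 CPM with rIL-4 (0.35, adjusted p = 0.460). For Prps1 the difference of 1.21 had an adjusted p of 0.0965. C3, Xdh and Postn had differences of -0.62, -0.16 and -0.37, with adjusted p-values of 0.612, 0.863 and 0.767.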

How the data were processed

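RNA of sorted microglia and macrophages was amplified with SMART-seq2, which uses oligo-dT priming, marks no strand and adds no molecular identifiers. The authors aligned the reads with STAR 2.5.3a to GRCm38, estimated counts per gene with RSEM 1.3.0 and deposited 1 table of expected counts. The annotation release is not given in the sources used here. RSEM divides reads among similar genes, so near-identical copies are uncertain.

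Here expected counts were rounded, genes were filtered with filterByExpr, and edgeR 4.0.16 in R 4.3.3 was run (TMM scaling, glmQLFit and glmQLFTest, two-sided, Benjamini-Hochberg adjustment over all genes tested, threshold 0.05). The 9 microglia libraries entered 1 fit. SE is the log2 fold change divided by the square root of F. The study's own tool was DESeq2, which served as an alternative (1.42.0). The scripts were tested on simulated data. Replicates are separate mice. No library was a duplicate of another, and 0 sample columns were left unused. Positions come from GENCODE (GRCm38), matched for 15547 of 15566 genes. Sums over lists were compared by two-sided exact permutation tests with SciPy 1.17.1. A gene without counts in a group was set to 3 counts per library for a lower bound.

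The difference between cell types was fitted on 12 libraries. Each mouse gave both cell types, so its number pairs them, and their deviations from group means correlated by 0.0277 to 0.0965.

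Named genes were the 18 higher and 8 lower DE genes with the lowest p whose libraries did not overlap, every DE gene of a pathway list, 14 genes always reported, and up to 6 genes of the interaction. The 21 pathway lists, 10 marker lists and the comparison itself were chosen with earlier results of these data known. Alternatives were DESeq2, its size factors, other count filters, other sets of libraries, the replicate block and leaving out each library. A few genes under this rule are not reported here.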

Additional observations from a re-analysis of the deposited data

Results flagged for a closer look

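For 3 genes the response to rIL-13 differed between microglia and macrophages by the interaction test of edgeR's quasi-likelihood fit, each with an adjusted p of 0.0353. Their levels are in CPM of the plain library total. Tnfsf8, which encodes the CD30 ligand, was at 4.53, 3.95 and 4.63 CPM in PBS macrophages and at 0.195, 0.101 and 0.0756 CPM in rIL-13 macrophages. In microglia it was at 5.87, 6.11 and 5.98 CPM with PBS and at 10.7, 4.19 and 15.7 CPM with rIL-13. The difference, microglia minus macrophages, was 5.78 ± 0.73 on the log2 scale (SE).

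Pdia4, a protein disulfide isomerase of the endoplasmic reticulum, was at 382, 350 and 381 CPM in PBS macrophages and at 1144, 1154 and 1480 CPM with rIL-13. In microglia it was at 275, 367 and 291 CPM and at 367, 419 and 448 CPM, and the difference was -1.45 ± 0.19 (SE). Pxylp1, a phosphatase acting on xylose in proteoglycan linkers, was at 10.9 and 6.50 CPM in PBS microglia of mice 2 and 3, lower in mouse 1, and at 0.0256, 0 and 0.0238 CPM with rIL-13. Its macrophage levels were 5.12, 3.59 and 3.28 CPM and 4.39, 3.07 and 3.91 CPM, and the fitted difference was -8.31 ± 1.05 (SE), a value that depends on the prior count. In microglia alone Pxylp1 did not pass the test (adjusted p = 0.465). The number of such genes was 0 without mouse 1, 2 or 3, 1 without mouse 5 or 7 and 13 without mouse 6.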

How the results depend on the processing

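The number of DE genes was 57, with 44 higher and 13 lower. DESeq2's Wald test gave 322, 187 and 135. With the 6 compared libraries alone it was 37 in all and 27 higher, and with all 18 libraries in 1 model 172, 116 and 56. Of the 57 genes, 25 were lost with the 6 libraries, with adjusted p-values from 0.0520 (Clec4a3) to 0.205 (Ear2), among them Sprr2a1, Pdcd1lg2, Socs1, Ccl6, Pfkfb4, Acta2, Tlr2, Spp1 and Ccl3. With all 18 libraries 7 were lost, namely Ccl4, Gpr17, Car4, Anpep, Gpld1, Nfil3 and Il1r1 (0.0586 to 0.222). Requiring 10 counts in every library gave 21 lower. Leaving out 1 microglia library gave 22 to 56 in all, 21 to 45 higher and 1 to 14 lower. In macrophages DESeq2 called 1163 genes and edgeR 570. The difference between cell types held for 3 genes, for 3 with the replicate block, for 162 by DESeq2, for 7 with any counted gene kept, and for 0 to 13 without 1 mouse. The cause of these changes was not tested. The log2 fold change of Il4ra ran from -0.19 (without rIL-13 mouse 6) to 0.55 and that of Nos2 from -0.20 (without PBS mouse 3) to 1.21, with -0.0036 without rIL-13 mouse 7. Direction also reversed in ratios of summed lists on the TMM scale for the receptor route (0.977), complement (0.989), lymphocytes (0.987) and astrocytes (0.996). The fibroblast and pericyte ratio, 1.51, was 0.701 without rIL-13 mouse 6, a choice made after seeing the data. With 10 counts in every library the small proline-rich list gave no value. Among single genes and lists, 1513 alternatives kept direction and side of the threshold or moved within the replicate spread, 98 lost the threshold and 6 passed it. With 3 mice per group, changes in genes with few counts were not well resolved.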
